A study of Mus musculus with 8 samples.

Results

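The 10 genes examined here belong to the Notch pathway and were examined for binding of WFS1 in C2C12 cells, a mouse myoblast line. They were taken by name and comprised the receptors Notch1, Notch2 and Notch3, the ligands Jag1, Jag2 and Dll1, the target genes Hes1, Hey1 and Heyl, and Rbpj, which encodes the DNA-binding protein of the pathway rather than a target. Of the 22292 peaks of the combined WFS1 ChIP-seq set, 74 lay inside or within 100 kb of 1 of these 10 genes, and no peak lay in the windows of more than 1 of them. The cells were proliferating and wildtype, and WFS1, an endoplasmic reticulum membrane protein studied here at the inner nuclear membrane, was precipitated with an antibody against the endogenous protein after crosslinking with DSG and formaldehyde. Chromatin was sonicated for 30 cycles, and a portion of the precipitated material for 6 further cycles, 36 in all, before sequencing, so that the 2 peak lists of 18283 and 12674 peaks come from 1 immunoprecipitation. The series has 8 libraries. The inputs and all libraries of WFS1 knockout cells that express WFS1-FlagTag, 6 in all, were not used here. There is 1 library per condition, the lists carry no score, signal or read count, and neither a test nor an error between replicates can be given. Peak lists also hold no expression, so the identity of the cells and the activity of these genes could not be checked from them.

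Notch signaling passes between neighbouring cells. A ligand of the Jagged or Delta-like family on one cell binds a Notch receptor on the next, the receptor is cut, and its intracellular domain moves to the nucleus, where it joins Rbpj on DNA and turns on genes of the Hes and Hey families. These genes encode basic helix-loop-helix repressors. In skeletal muscle the pathway is known for holding progenitors and satellite cells back from differentiation, in opposition to the myogenic factor MyoD.

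Sequences of peaks at 7 of the genes are shown because they hold the short sequences discussed with the results. A set of 6 sequences was searched on both strands, namely CAGCTG (an E-box that MyoD binds, identical on both strands), TGACTCA (the AP-1 site), TGGGAA (the core of the Rbpj site), CACGTG (an E-box of the Hes and Hey type, identical on both strands), TGTGGT (the core of the Runx site) and CATTCC (the Tead site). None of them contains another, but neighbouring matches can overlap. Capitals mark every match to any of the 6, in either orientation. Each entry for Notch1, Notch2, Notch3, Hey1 and Rbpj is the central 200 bases of the peak of both lists nearest to the start site whose central bases were free of annotated untranslated sequence. The central bases chosen in the same way for Jag1, Heyl and Hes1 held no match and are not shown. For Hes1 and Heyl 200 bases were instead chosen after their matches were seen, for Hes1 just before the RefSeq start and for Heyl from the centre of a peak farther upstream. All are from GRCm38.
Notch1, chr2:26531896-26532095, plus strand: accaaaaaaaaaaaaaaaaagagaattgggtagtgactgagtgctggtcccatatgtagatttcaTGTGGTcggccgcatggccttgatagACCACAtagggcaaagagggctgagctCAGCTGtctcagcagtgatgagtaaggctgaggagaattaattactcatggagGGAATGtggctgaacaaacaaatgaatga
Notch2, chr3:98013824-98014023, plus strand: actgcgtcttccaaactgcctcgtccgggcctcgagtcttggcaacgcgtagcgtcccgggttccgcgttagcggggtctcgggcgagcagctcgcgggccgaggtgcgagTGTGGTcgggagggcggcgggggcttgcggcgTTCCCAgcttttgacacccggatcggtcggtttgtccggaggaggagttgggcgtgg
Notch3, chr17:32161207-32161406, plus strand: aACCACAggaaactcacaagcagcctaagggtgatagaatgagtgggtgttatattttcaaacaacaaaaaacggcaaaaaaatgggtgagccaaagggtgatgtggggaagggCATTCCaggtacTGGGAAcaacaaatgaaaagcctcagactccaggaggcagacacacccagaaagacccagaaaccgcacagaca
Hes1, upstream, chr16:30065140-30065339, plus strand: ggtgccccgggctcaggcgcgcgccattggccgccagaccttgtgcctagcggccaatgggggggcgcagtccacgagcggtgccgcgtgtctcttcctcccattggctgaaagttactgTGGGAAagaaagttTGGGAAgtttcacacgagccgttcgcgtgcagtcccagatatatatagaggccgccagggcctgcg
Hey1, chr3:8717368-8717567, plus strand: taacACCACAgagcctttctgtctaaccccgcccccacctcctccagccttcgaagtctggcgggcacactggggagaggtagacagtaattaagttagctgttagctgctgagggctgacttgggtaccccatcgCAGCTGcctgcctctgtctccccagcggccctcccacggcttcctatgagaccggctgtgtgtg
Heyl, upstream, chr4:123228382-123228581, plus strand: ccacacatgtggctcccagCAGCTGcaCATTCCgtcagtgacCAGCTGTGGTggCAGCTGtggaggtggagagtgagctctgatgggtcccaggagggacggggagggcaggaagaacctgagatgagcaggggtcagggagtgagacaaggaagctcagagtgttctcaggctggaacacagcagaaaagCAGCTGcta
Rbpj, chr5:53490674-53490873, plus strand: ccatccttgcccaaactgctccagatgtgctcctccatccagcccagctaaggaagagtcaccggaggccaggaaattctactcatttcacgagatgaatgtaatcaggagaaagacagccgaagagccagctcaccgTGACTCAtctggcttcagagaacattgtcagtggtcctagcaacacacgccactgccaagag

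All 10 genes had at least 1 combined peak inside them or within 100 kb, against 73.4% of 21938 protein-coding genes. The number ranged from 1 peak at Dll1 to 11 peaks each at Notch2, Jag2 and Rbpj, with 10 at Hes1, 9 at Notch3, 7 at Jag1, 5 each at Notch1 and Hey1, and 4 at Heyl. The median was 8 peaks per gene, whereas it was 2 for all protein-coding genes. Of the 10, 4 (Notch2, Jag2, Hes1 and Rbpj) had 10 or more peaks, a number reached by 7.06% of protein-coding genes. This cutoff equals the Hes1 count, and no peak in the Jag2 window was nearest to Jag2 among protein-coding starts. At least 1 peak present in both lists was found at 9 of 10, the exception being Dll1, against 47.8% of protein-coding genes. A peak inside the gene body was found at 8 of 10, with Jag2 and Dll1 lacking one, against 24.6%. The median length of the genes was 28.6 kb, compared with 17.4 kb for all protein-coding genes, and a longer gene has a wider window. Per length of window, the 74 peaks in 2.52 Mb amounted to 29.3 peaks per Mb (95% interval from counting error 23 to 36.8). The density was 8.18 peaks per Mb over the genome and 10.5 over the joined windows of all protein-coding genes. The ratio to the genome was 3.59 (2.82 to 4.5). Both intervals treat neighbouring peaks as independent, and the 10 genes were chosen with earlier results of these data known.

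**Figure D1:**
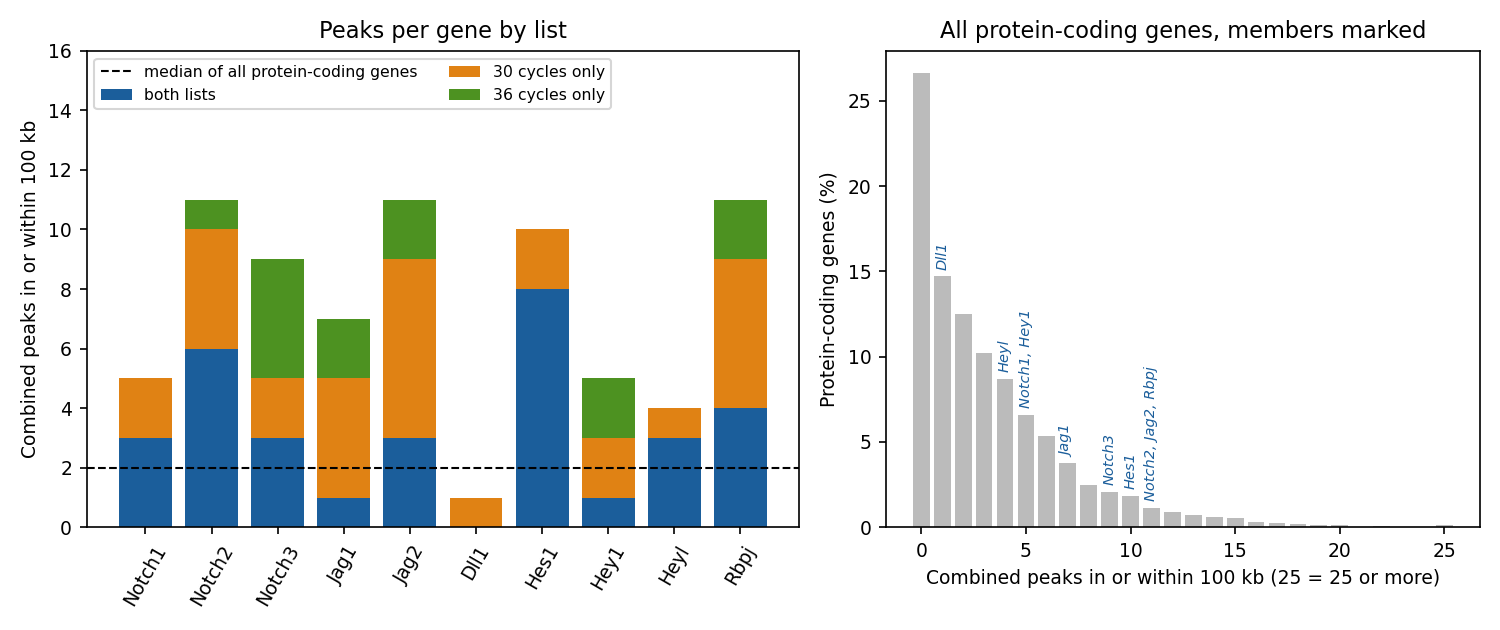
Left, combined WFS1 peaks inside or within 100 kb of each gene (y axis, number of peaks), stacked by the list in which they were found, with the median of all protein-coding genes, 2, as a dashed line. Right, the share of protein-coding genes (y axis, percent) by number of peaks (x axis), with the 10 genes written above their bars. Dll1 has 1 peak and lies below the median, and the other 9 have 4 to 11.

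**Figure D2:**
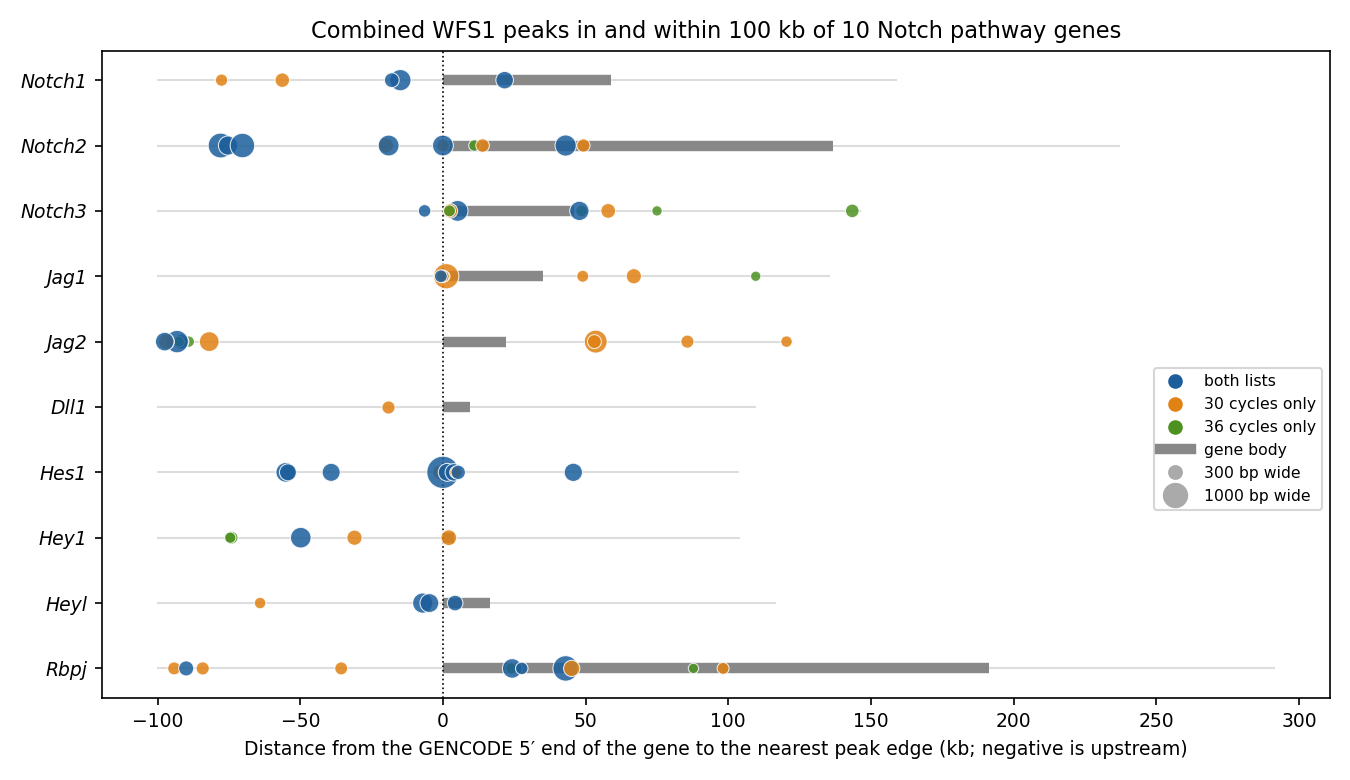
Position of each of the 74 peaks relative to the 5′ end of its gene in GENCODE (x axis, kb, negative is upstream) for the 10 genes (rows). Grey bars are gene bodies, thin lines the windows searched, colours the lists, and the area of a point is proportional to the width of the peak. Peaks crowd around the start of Hes1 and Jag1, whereas those of Jag2 all lie more than 50 kb from its start.

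Among the 74 peaks, 32 were present in both lists (43.2%, 95% Wilson interval 32.6 to 54.6), 29 in the 30-cycle list alone (39.2%, 28.9 to 50.6) and 13 in the 36-cycle list alone (17.6%, 10.6 to 27.8). For all combined peaks the shares were 35.4%, 45.5% and 19.1% and lay inside the intervals of the 10 genes, so that no difference in the division between the lists was detectable. Their positions were spread, with 23 peaks inside the genes (16 in introns and 7 touching exons), 35 upstream and 16 downstream. The median distance to the start site of the gene was 45.4 kb, 20 peaks lay within 10 kb and 7 within 1 kb. For 54 of the 74 (73%, 61.9 to 81.8), no other protein-coding start site was nearer. Matching shares for the windows of all protein-coding genes were not computed. These positions, and the counts of nearest starts given by gene below, are therefore a description without a baseline. All 12 peaks at Jag2 and Dll1 were nearer to a neighbouring gene, and at the other 8 genes 54 of 62 were nearest to their own. When the starts of all annotated genes were considered, noncoding ones included, the share was 41.9%. A peak was counted at a gene by distance alone, and contacts between peaks and genes were not measured in these files.

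The 3 receptor genes, which encode the transmembrane proteins that receive the signal, had 25 peaks, of which 12 were present in both lists. Notch1 (ENSMUSG00000026923, chr2:26457903-26516663, minus strand) had 5. Its single peak inside the gene, at chr2:26494473-26495039, was 567 bp wide, was called in both lists and lay in an intron 21.6 kb from the GENCODE 5′ end. That end lies farther upstream than the RefSeq start, from which the same peak was 8.78 kb away. The nearest peak upstream, chr2:26531581-26532410, was 14.9 kb from the GENCODE end, was 830 bp wide in the 30-cycle list and 270 bp in the 36-cycle list, and held the CAGCTG, both TGTGGT and the CATTCC of the Notch1 sequence above. A second peak of both lists followed at 17.9 kb upstream. The last 2, 56.3 and 77.6 kb upstream and from the 30-cycle list alone, were nearer to the starts of Egfl7 and Gm20532. Thus Notch1 had no peak within 10 kb of its GENCODE start and all peaks that were nearest to it were called in both lists.

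Notch2 (ENSMUSG00000027878, chr3:98013527-98150361, plus strand) had 11 peaks, 6 of them in both lists. One, 797 bp wide at chr3:98013526-98014322, covered the start site and was 681 bp wide after 30 cycles and 702 bp after 36 cycles. It had a GC content of 66.2% and the TGGGAA and TGTGGT of the sequence above, which lies in the first intron. A peak of the 30-cycle list alone, 301 bp wide, ended 0.011 kb before the start. Upstream, a peak of both lists, 800 bp wide, lay 19 kb from the start beside one of 415 bp from the 30-cycle list alone, and 3 more formed a group from 77.9 to 70.3 kb upstream. All 3 of that group were present in both lists, with widths of 1136, 680 and 1106 bp, in a stretch of 8.79 kb that overlaps the annotated gene Gm5544 and is nearest, among protein-coding starts, to Sec22b at 33.3 to 41 kb. Of the 4 peaks inside introns, the one 43 kb from the start was present in both lists and was wider after 36 cycles (801 bp) than after 30 cycles (375 bp), the reverse of most. The remaining intronic peaks, at 11, 13.9 and 49.2 kb, were 244 to 337 bp wide and were each found in 1 list.

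Notch3 (ENSMUSG00000038146, chr17:32120820-32166852, minus strand) had 9 peaks, with 3 in both lists, 2 in the 30-cycle list alone and 4 in the 36-cycle list alone, more of the latter kind than any of the other 9 genes. A group of 3 peaks lay in the first part of the gene, 2.3 to 5.15 kb from the start, over 3.64 kb. The widest of it, chr17:32160909-32161704, was present in both lists (796 bp after 30 cycles, 637 bp after 36 cycles) and held 1 TGGGAA, 1 CATTCC and 1 TGTGGT in its central 200 bases, as printed above. The one nearest to the start, 263 bp wide and from the 36-cycle list alone, held 3 CAGCTG and 2 TGGGAA in its centre. The third, of 391 bp and from the 30-cycle list alone, touched an exon 2.59 kb from the start. Another 289 bp peak of both lists lay 6.43 kb upstream. Past the 3′ end, a peak of both lists (687 bp) and a 36-cycle peak of 250 bp lay 47.8 and 48.6 kb from the start and overlapped the annotated gene Gm17276. Beyond them, a 401 bp peak at 57.9 kb was still nearest to Notch3 among protein-coding starts, and those at 75 and 143.4 kb were nearer to other genes. No peak was within 1 kb of the start of Notch3.

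The ligand genes, whose products sit on the signal-sending cell, had 19 peaks, 4 of them in both lists, and differed from each other. Jag1 (ENSMUSG00000027276, chr2:137081456-137116644, minus strand) had 7 peaks, 4 of which formed a group of 3.35 kb at its start. One of these, 290 bp wide, covered the start site (30-cycle list alone), one of 299 bp lay 0.727 kb upstream (both lists, 242 and 195 bp after 30 and 36 cycles), one of 195 bp lay 0.662 kb inside (36-cycle list alone), and one of 1174 bp at chr2:137114320-137115493 lay 1.15 kb inside (30-cycle list alone). The last was the widest of the 42 peaks at these genes found in 1 list. Thus the 5′ end of Jag1 was covered in the 30-cycle list alone, and both lists had peaks within 1 kb of it, mostly different intervals. Downstream, peaks 49, 66.9 and 109.6 kb from the start overlapped the neighbouring gene Slx4ip and were each found in 1 list.

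Jag2 (ENSMUSG00000002799, chr12:112907819-112929776, minus strand) had 11 peaks in its window, but none within 50 kb of its start. Those downstream, 4 peaks of the 30-cycle list alone, were 53.1 to 120.4 kb downstream of the start and, among protein-coding starts, nearest to Gpr132, Cdca4 and Clba1. The other 7 were 81.9 to 97.5 kb upstream and nearest to Pacs2, and 6 of these formed a group of 9.08 kb inside Pacs2, with 3 in both lists (405, 925 and 640 bp). Not one of the 11 was nearest to the start of Jag2. Dll1 (ENSMUSG00000014773, chr17:15367354-15376872, minus strand) had 1 peak, of 317 bp and from the 30-cycle list alone. It lay 19.4 kb upstream of Dll1 and 0.053 kb from the start of Fam120b, and the nearest peak of both lists was 584.2 kb from the Dll1 start.

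The target genes, encoding repressors that act downstream of the receptors, had 19 peaks, 12 of them in both lists. Among protein-coding starts, 18 of the 19 were nearest to the gene in question. Hes1 (ENSMUSG00000022528, chr16:30064384-30067796, plus strand), the gene with the most peaks near its start, had 10 peaks, all nearest to Hes1 among protein-coding starts. Of these, 8 were in both lists (80%, 49 to 94.3), the highest share of the 10 genes, compared with 35.4% of all peaks. The interval treats the 10 peaks as independent, though they lie at 1 locus. Within 10 kb of the Hes1 start lay 6 peaks, in a stretch of 7.09 kb from 0.95 kb upstream to 5.35 kb downstream of it. Only 0.31% of protein-coding genes had 6 or more peaks at this distance, a cutoff equal to the Hes1 count, and 36 genes had more than Hes1. The widest, chr16:30063615-30065535, spanned 1921 bp over both the GENCODE and the RefSeq start and was the widest of the 74, with 100 of the 22292 combined peaks wider. It was 949 bp wide after 30 cycles and 1535 bp after 36 cycles. A peak of 591 bp followed over exons 1.5 kb inside, then peaks of 558, 267 and 381 bp past the 3′ end of this short gene at 3.8, 4.48 and 5.35 kb, and a peak of 412 bp preceded the group at 0.95 kb upstream. Of the 6, those of 412 and 267 bp were in the 30-cycle list alone and the other 4 in both.

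The stretch upstream of Hes1 printed above ends 18 bases before the RefSeq start at position 30065357, and all 200 bases lie inside the 1921 bp peak. In GENCODE the same bases belong to an intron of a longer transcript. It held 2 TGGGAA in the same orientation, beginning 97 and 83 bases before that start and with 8 bases between them. In the RefSeq promoter windows, 17.3% of 32851 had at least 1 TGGGAA in the 200 bases before the start, and 1.85% had 2 or more. The match is of letters only, and Rbpj binding was not measured here. Rbpj sites that differ from TGGGAA were not searched, so the 2 matches need not be a pair of Rbpj sites. The remaining peaks of Hes1 were a pair of both lists 55.1 and 54.3 kb upstream (709 and 531 bp) in the annotated gene 4632428C04Rik, a peak of both lists 39.2 kb upstream (601 bp) in 9030404E10Rik, and a peak of both lists 45.7 kb downstream (614 bp). Among the starts of all annotated genes, these were nearest to 4632428C04Rik, 9030404E10Rik or Gm20040 and not to Hes1. The first of the pair covered the start of 4632428C04Rik, with a GC content of 70% and a ratio of observed to expected CpG of 0.675. The second of the pair held 2 CAGCTG, 2 TGTGGT and 1 TGGGAA in its centre, and that at 39.2 kb held 1 TGACTCA, 1 TGGGAA and 1 CATTCC in its centre.

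Hey1 (ENSMUSG00000040289, chr3:8663359-8667256, minus strand) had 5 peaks, all nearest to its own start among protein-coding starts. A peak of 456 bp from the 30-cycle list alone lay inside the gene 2.06 kb from the start, with a GC content of 56.8%. The single one of both lists, chr3:8717078-8717858, was 49.8 kb upstream, 781 bp wide after 30 cycles and 390 bp after 36 cycles, and held the CAGCTG and TGTGGT shown above. A 425 bp peak of the 30-cycle list was 31 kb upstream, and a pair from the 36-cycle list alone, of 308 and 233 bp, lay 74.1 and 74.5 kb upstream. Of the 5, 3 held CAGCTG in the centre. Hey1 thus had upstream peaks over a long range but none at its start.

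Heyl (ENSMUSG00000032744, chr4:123233556-123249875, plus strand) had 4 peaks, and 3 of them, all in both lists, lay within 10 kb of the start. They were 750 bp wide at 7.08 kb upstream, 655 bp at 4.75 kb upstream and 450 bp at 4.27 kb inside the first part of the gene. The middle one, chr4:123228155-123228809, held 4 CAGCTG in its central 200 bases within 178 bases, 1 of which overlaps a TGTGGT by its last 2 bases in the sequence above. Only 31 of 22287 combined peaks on nuclear chromosomes held 4 or more in the centre, and 96 held 3 or more. The peak at 7.08 kb held 1 CAGCTG, 1 TGACTCA and 1 TGGGAA in its centre. The fourth, 242 bp and in the 30-cycle list alone, was 64.1 kb upstream and nearer to Hpcal4.

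Rbpj (ENSMUSG00000039191, chr5:53466152-53657362, plus strand), whose product recruits repressors or, with the Notch intracellular domain, activators to DNA, had 11 peaks, 4 of them in both lists. All were nearest to its own start among protein-coding starts. Of these, 7 lay in introns of the 191.2 kb gene and 4 upstream at 35.6 to 94.2 kb, of which the 418 bp peak at 90 kb was present in both lists. Among the starts of all annotated genes, the 4 upstream peaks were nearest to Gm42745 or Gm26486, and that at 94.2 kb covered the start of Gm42745. Intronic peaks from 43 kb onward were nearest to Gm10441 or Gm40304. In the intron, a group of 3 peaks of 236, 702 and 288 bp lay 23.9 to 27.6 kb from the 5′ end, the last 2 in both lists, and a peak of 1193 bp at chr5:53509154-53510346 followed at 43 kb, with 1193 bp after 30 cycles and 679 bp after 36 cycles. The RefSeq starts of Rbpj are downstream of these, so that 10 of the 11 peaks were upstream when measured from them, 6 of which are intronic in GENCODE, and the nearest lay at 1.65 kb. In the centre, 5 of the 11 peaks held TGACTCA (45.5%, 21.3 to 72), against 17.9% of all combined peaks, and 0 of 11 held CAGCTG (upper bound 25.9%), against 18%. The sequence printed above is from the second of the group, 702 bp wide and in both lists, with 1 TGACTCA in its centre. The gene was picked from the 10 for these shares after its values were seen. Both intervals treat the 11 peaks as independent, though they lie at 1 locus.

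Start sites were covered at 3 of the 10 genes, Notch2, Jag1 and Hes1, which had 2, 3 and 2 peaks within 1 kb. Among all protein-coding genes 13.2% had such a peak. The count was also 3 with the RefSeq starts, with the same genes. These 7 peaks had a median GC content of 62.1% and a median ratio of observed to expected CpG of 0.828 (range 0.53 to 0.93). The lowest ratio belonged to the 195 bp peak 0.662 kb inside Jag1, whose GC content was 48.2%. The other 67 had medians of 50.3% and 0.201, and 6 of them reached a ratio of 0.6. The median GC content of all 74, 50.5%, was above the 47.1% of all combined peaks.

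**Figure D3:**
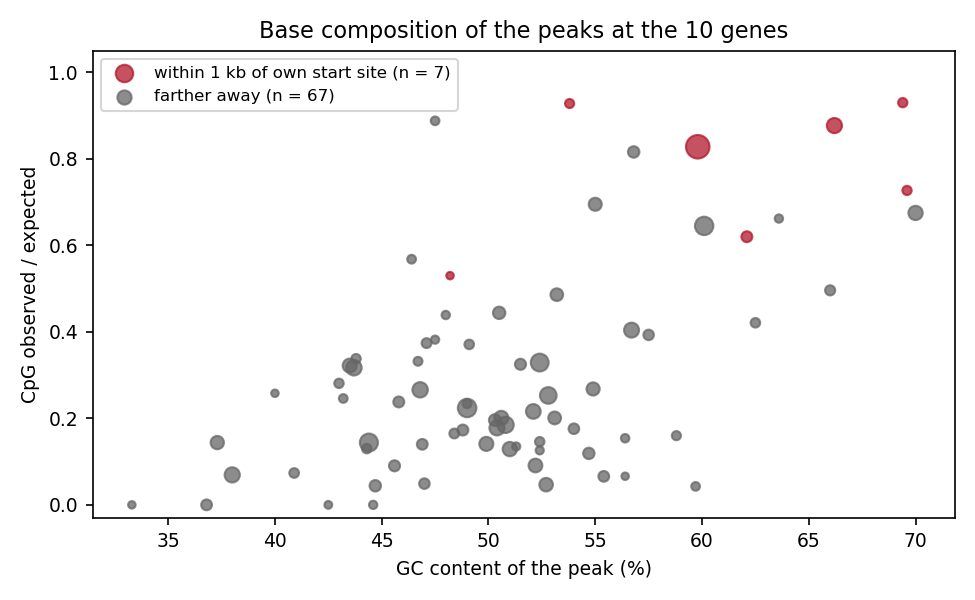
GC content (x axis, percent) and ratio of observed to expected CpG (y axis) of the 74 peaks, with the area of a point proportional to the width of the peak. Red points are the 7 peaks within 1 kb of the start of their own gene, which lie at ratios of 0.53 to 0.93, and grey points the other 67, with a median of 0.201.

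The median width of the 74 peaks was 403 bp (range 195 to 1921 bp), and it was 376 bp for all combined peaks. Peaks of both lists had a median of 667.5 bp, those of the 30-cycle list alone 337 bp and those of the 36-cycle list alone 233 bp, close to the values for all combined peaks of 623, 324 and 255 bp. Combined intervals of both lists are joined from the 2 calls and therefore cannot be narrower than either. Among the 32 peaks of both lists, 23 were wider after 30 cycles and 9 after 36 cycles, and the median widths were 620.5 and 371.5 bp. The start peaks of Notch2 and Hes1 were among the 9. Of the 74, 5 (6.76%) exceeded 1000 bp, namely 2 at Notch2 and 1 each at Jag1, Hes1 and Rbpj, against 6.4% of all combined peaks.

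**Figure D4:**
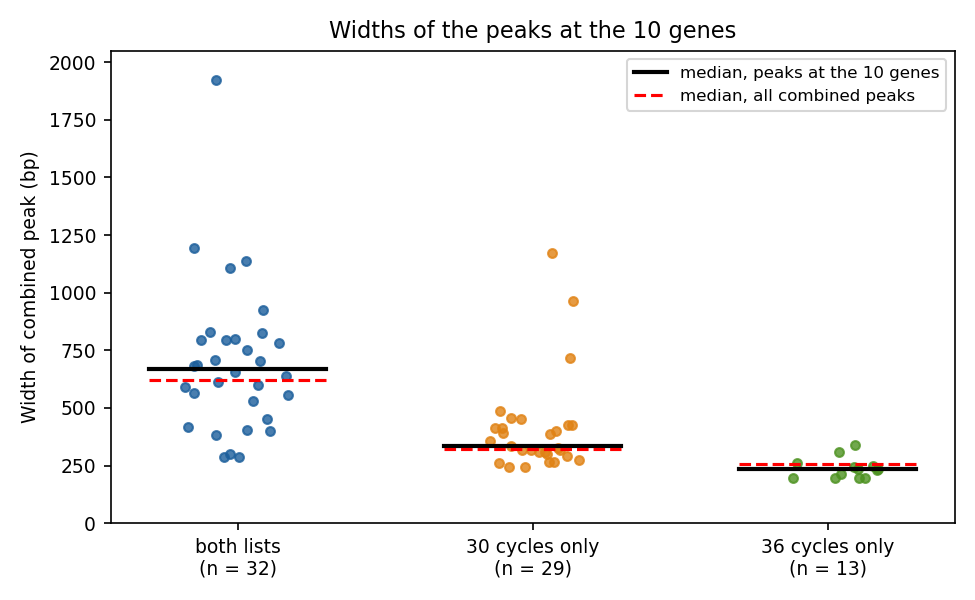
Widths of the 74 peaks (y axis, bp) by the list in which they were found (x axis), each point a peak, with the median of the 10 genes as a black line and that of all combined peaks as a red dashed line. The medians of 667.5, 337 and 233 bp lie close to the red lines, and 1 peak, over the start of Hes1, stands at 1921 bp.

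Peaks at these genes were often close together. Of the 74, 25 (33.8%, 24 to 45.1) belonged to groups of 3 or more with gaps of at most 5 kb, against 21.2% of all combined peaks. There were 6 such groups, at Notch2, Notch3, Jag1, Hes1 and Rbpj and, within Pacs2, in the window of Jag2. Peaks enter this share in whole groups, whereas the interval treats them as independent and is therefore too narrow. The windows also held more peaks per Mb than the genome (29.3 against 8.18), and the share was not adjusted for that. The size and spacing of these groups were set after the values were seen.

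CAGCTG was found in the centre of 19 of the 74 peaks (25.7%, 17.1 to 36.7), whereas it was found in 18% of all combined peaks. TGGGAA was in 20 (27%, 18.2 to 38.1) against 19.5%, TGTGGT in 22 (29.7%, 20.5 to 40.9) against 24.7% and CATTCC in 15 (20.3%, 12.7 to 30.8) against 15.6%. TGACTCA was in 13 (17.6%, 10.6 to 27.8) against 17.9%, and CACGTG in 2 (2.7%, 0.744 to 9.33) against 3.07%. For each of the 6 sequences the interval of the 10 genes included the share of all peaks, so that no difference was detectable with 74 peaks. Of the 74, 20 held none of the 6 in the centre. By gene, CAGCTG was found in 4 of 9 peaks at Notch3, 3 of 5 at Hey1, 2 of 4 at Heyl and 3 of 10 at Hes1. It was found in 1 of 11 at Notch2 and 0 of 11 at Rbpj. TGGGAA, the Rbpj core, was in 4 of 11 at Notch2, 5 of 11 in the window of Jag2 and 3 of 10 at Hes1. It was in 1 of 11 at Rbpj and in 0 of 5 at Notch1. The genes given here were picked with their values in view, and counts this small show no pattern by gene.

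**Figure D5:**
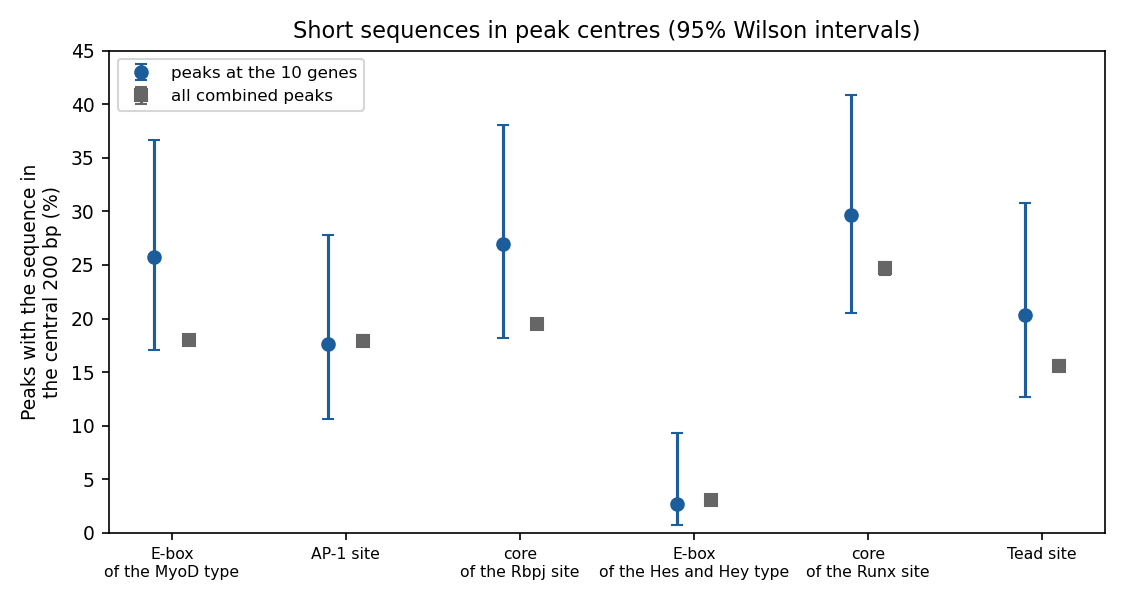
Share of peaks (y axis, percent) with each of 6 short sequences (x axis) in the central 200 bp, for the 74 peaks at the 10 genes (blue) and all combined peaks on nuclear chromosomes (grey), with 95% Wilson intervals. Each blue interval spans the grey value.

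The 10 genes were set beside 52 other genes of the pathway, listed by hand by their role. Of these, 45 (86.5%) had a peak within 100 kb, 35 (67.3%) a peak of both lists, 22 (42.3%) a peak inside the gene and 12 (23.1%) a peak within 1 kb of the start, and the median was 3.5 peaks per gene. Many peaks were found at Maml3 (17), which encodes a coactivator of the Mastermind family, and Hes6 (16), followed by Mfng (11), a glycosyltransferase of the Fringe family, and by Hes7, Neurl1a and Dtx2 with 10 each. Of the 12 coactivators and corepressors, 10 had a peak inside the gene and 5 at the start, namely Maml1, Maml3, Ep300, Kat2b and Ncor1. Start peaks were also found at Adam17, whose protease cuts receptors and other surface proteins, at Lfng, a second Fringe gene, and at Dtx3, Dtx4, Nedd4 and Fbxw7, which encode ubiquitin ligases or their subunits. Among the other Hes and Hey genes and Nrarp, Hes6 alone had a peak at its start, Hes7 had 10 peaks with the nearest at 1.32 kb, and Hes5 had none. Notch4 had 5 peaks, none inside the gene and the nearest 29 kb from its start, and Dll4, another Delta-like ligand, had 4, the nearest at 24.8 kb. No peak within 100 kb was found at 7 of the 52, namely Dlk1, Hes5, Snw1, Psenen, Pofut1, Mib1 and Dtx3l. Neither the 10 nor the 52 are a random choice of genes, so these counts are a description.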

How the data were processed

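WFS1 ChIP-seq peaks came from 2 deposited lists, 1 per library, of a series of 8 libraries. By the methods of the study and the submitters' processing notes, reads were aligned by the authors to the GRCm38 build using NextGenMap, SAMtools removed those of low mapping quality, and MACS2 was run on each library by itself. The control used in peak calling is not given in the sources used here. The deposited files hold chromosome, start and end only, so that depth is unknown, peaks cannot be ranked, and intervals cover counting error only.

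Lists were joined as by bedtools merge (version 2.31.1), and a joined peak was assigned to a list at 1 bp of overlap. Of 22292 joined peaks, 22287 are on nuclear chromosomes. Genes were from GENCODE mouse release 21, with RefSeq starts as an alternative. Distances run from the nearest edge of a peak. Sequences were read with samtools 1.23.1, and Wilson intervals computed with scipy 1.17.1. No test was made, and scripts were tested on simulated data. Named were the 10 genes, with every peak where a gene had up to 8 and otherwise at least the peaks of both lists, the nearest to the start and the widest, and, of the other pathway genes, the 5 with most peaks (ties kept) and those with a start peak. A gene that this rule names is not reported here. Further names, such as the pathway genes without a peak, were picked with their values in view. The 10 genes, the pathway list and the sequences searched were chosen with earlier results of these data known.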

Additional observations from a re-analysis of the deposited data

How the results depend on the processing

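The number of peaks at the 10 genes was 74 and became 132 with a window of 250 kb, 46 with the 36-cycle list alone and 42 with peaks wider than the median of the combined set. Start sites had a peak within 1 kb at 3 genes and within 5 kb at 6. The share of peaks in both lists, 43.2%, was 27% when at least 50% of each peak had to be shared and 69% among wider peaks. The share nearest to the start of the gene, 73% among protein-coding starts, was 41.9% among the starts of all genes and 92% with a window of 50 kb. Searching whole peaks raised the shares with CAGCTG to 44.6%, with TGACTCA to 28.4% and with TGGGAA to 43.2%. These follow from the alternatives themselves, which count other intervals, windows or lengths of sequence. Of 30 alternatives, the other 19 moved the values by less than the limits set. The ratio of peak density to the genome ranged from 2.92 to 4.01.

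No paired analysis was possible because no group has a second library and nothing was tested. Leaving out a library was done as each list alone. The planned stricter threshold on peaks could not be applied to lists without scores, and width took its place. The RefSeq starts were added as an alternative after the data were seen. Both lists derive from 1 immunoprecipitation, so that a peak in both is a repeat of sonication and sequencing and not of the experiment.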
